A study of Mus musculus with 12 samples.

Results

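The cardiac conduction system is followed here through 9 genes of mouse heart ventricle, of 51912 genes in the expression table. They were taken by name and comprise the pacemaker channel genes Hcn2 and Hcn4, the conduction cell marker Cntn2, the transcription factor genes Tbx3, Tbx5, Etv1, Irx3 and Nkx2-5, and the gap junction gene Gja5. RNA of fresh ventricle tissue was sequenced in 12 libraries, 3 each of LCHADD females, WT females, LCHADD males and WT males. LCHADD is deficiency of long-chain 3-hydroxyacyl-CoA dehydrogenase, an activity of the mitochondrial trifunctional protein that shortens long-chain fatty acids, and WT is wild type. The labels give the genotype only in these words, with no treatment in any group, and give no allele, strain or age. The title of the study concerns acute arrhythmias in these mice, so the comparison bears on which genes of impulse formation and spread differ between the genotypes. The labels do not say whether each library came from a separate animal, so p-values measure the spread between these libraries, which may be in part technical.

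In the mammalian heart the impulse starts in the sinoatrial node, is delayed in the atrioventricular node, and runs through the His bundle, the bundle branches and the Purkinje fibres into working muscle. HCN channels, which open on hyperpolarisation and are modulated by cyclic AMP, carry the pacemaker current, and Hcn4 is the main isoform of nodal and Purkinje cells. T-box, ETS, Iroquois and NK2 factors set the identity of these cells, and connexin 40, the product of Gja5, couples them for fast conduction. In ventricle tissue, conduction cells are a small minority among working cardiomyocytes, endothelial cells and fibroblasts.

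Promoter windows of 250 bases before to 50 bases after the RefSeq start were matched for 7 of the 9 genes on GRCm38.p6, the exceptions being Tbx3 and Tbx5. Those of Hcn2 (chr10:79716384-79716683, plus strand), Hcn4 (chr9:58822699-58822998, plus strand), Cntn2 (chr1:132542891-132543190, minus strand) and the upstream window of Etv1 (chr12:38779832-38780131, plus strand) are printed 5′ to 3′. They are shown because Hcn2 moved against Hcn4, Cntn2 had the steepest fall, and Hcn4 and Etv1 hold the motif matches, which are in capitals.
Hcn2: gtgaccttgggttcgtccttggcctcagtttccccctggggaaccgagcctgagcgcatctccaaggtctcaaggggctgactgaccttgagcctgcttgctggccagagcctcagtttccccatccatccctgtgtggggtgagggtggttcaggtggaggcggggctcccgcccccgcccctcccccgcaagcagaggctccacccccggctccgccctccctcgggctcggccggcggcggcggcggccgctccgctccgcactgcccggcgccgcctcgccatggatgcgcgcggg
Hcn4: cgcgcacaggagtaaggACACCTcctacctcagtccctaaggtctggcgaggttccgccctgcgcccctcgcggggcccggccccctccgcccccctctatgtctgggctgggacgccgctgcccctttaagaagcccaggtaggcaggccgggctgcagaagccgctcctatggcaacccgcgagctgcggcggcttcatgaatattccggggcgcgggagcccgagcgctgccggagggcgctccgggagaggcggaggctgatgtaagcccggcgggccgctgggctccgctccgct
Cntn2: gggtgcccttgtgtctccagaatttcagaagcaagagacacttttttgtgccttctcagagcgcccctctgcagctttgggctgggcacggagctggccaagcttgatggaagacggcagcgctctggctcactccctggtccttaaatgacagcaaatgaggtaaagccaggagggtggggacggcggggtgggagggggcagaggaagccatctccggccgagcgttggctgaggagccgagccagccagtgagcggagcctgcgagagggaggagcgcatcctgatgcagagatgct
Etv1: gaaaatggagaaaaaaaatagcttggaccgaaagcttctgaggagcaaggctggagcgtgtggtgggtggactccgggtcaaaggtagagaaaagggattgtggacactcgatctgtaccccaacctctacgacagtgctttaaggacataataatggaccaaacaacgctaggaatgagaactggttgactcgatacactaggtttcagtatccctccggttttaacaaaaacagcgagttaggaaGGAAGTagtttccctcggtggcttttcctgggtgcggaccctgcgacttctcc
On both strands, 3 motifs were searched: the T-box half-site AGGTGT, the NKX2-5 element TNAAGTG and the ETS motif GGAAGT. Hcn4 held the T-box half-site on the other strand, as ACACCT, 233 bases before the start, and 13.7% of 32851 RefSeq promoter windows held it. Etv1 held the ETS motif 3 bases before the start, as 23.8% of windows did. A second Etv1 window, further downstream, held the NKX2-5 element as TTAAGTG, which 11.5% of windows held. The windows of Hcn2, Cntn2, Irx3, Gja5 and Nkx2-5 held none of these letters. The windows of Hcn2 and Hcn4 had a GC content of 72.3% and 71.7%, that of Cntn2 61.3% and the upstream window of Etv1 48.7%. These matches describe the sequence and are not evidence of binding.

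The libraries held 15.6 to 23.2 M (mega) reads assigned to genes, 16.7 to 19.0 M in LCHADD and 15.6 to 23.2 M in WT. The share of reads from the mitochondrial genome was 34.4 ± 2.70% in LCHADD and 29.3 ± 1.94% in WT (SD, n = 6). LCHADD female 2 lay farthest from its group, with a root mean square deviation of 0.360 (log2) from the group mean, against 0.220 to 0.311 in the other libraries. None of the calls of the 9 genes changed when it was left out together with WT female 3. Markers of heart muscle were read beside the label of ventricle. The summed level of 8 ventricular cardiomyocyte genes, among them Myh6 and Actc1, was 565537 to 956229 normalised reads in LCHADD and 1014314 to 1098167 in WT. Myh6 and Actc1, the most abundant of them, are also expressed in atrial muscle, so this sum does not tell the chambers apart. Myl2, a ventricular light chain gene of the list, had 90791 to 118439 normalised reads in LCHADD and 114099 to 138954 in WT. Of 8 atrial markers, Myl7 and Sln stayed under 10 in every library and the other 6 were detected. The most abundant, Stard10, had 303 to 430.2 normalised reads in LCHADD and 338 to 449 in WT.

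All 9 genes passed the filter on low values and were tested. Values are normalised read counts, that is reads divided by a size factor per library. Changes are LCHADD minus WT on the scale of log2(value + 1), with the SE of the limma fit. A gene passed when its limma p, adjusted by the method of Benjamini and Hochberg over the 13865 tested genes, was under 0.05. Over both sexes means the average of the female and the male change. In females 7 of the 9 passed, 1 higher and 6 lower in LCHADD, where 33.8% of all tested genes passed, 16.7% higher and 17.2% lower. In males 5 passed, 1 higher and 4 lower, against 15.5% of all tested genes, 7.71% higher and 7.77% lower. Over both sexes 7 passed, 1 higher and 6 lower, against 40.8% of all tested genes, 20.3% higher and 20.6% lower. The median change of the 9 genes over both sexes was -0.58, and that of all tested genes was -0.0019. The 9 genes were chosen with earlier results of these data known. The counts and the median beside all tested genes are thus a description and no test of the set. For 5 genes the 6 LCHADD and the 6 WT libraries did not overlap: Hcn2 was higher in LCHADD, and Hcn4, Cntn2, Tbx5 and Etv1 were lower. Of all tested genes 19.7% did not overlap, 9.82% being higher and 9.91% lower in LCHADD. Within females alone 1 gene was apart as higher and 6 as lower in LCHADD, where 44.5% of all tested genes did not overlap, 22.2% higher and 22.3% lower. Within males 1 was apart as higher and 4 as lower, where 38.9% did not overlap, 19.6% higher and 19.3% lower.

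**Figure D1:**
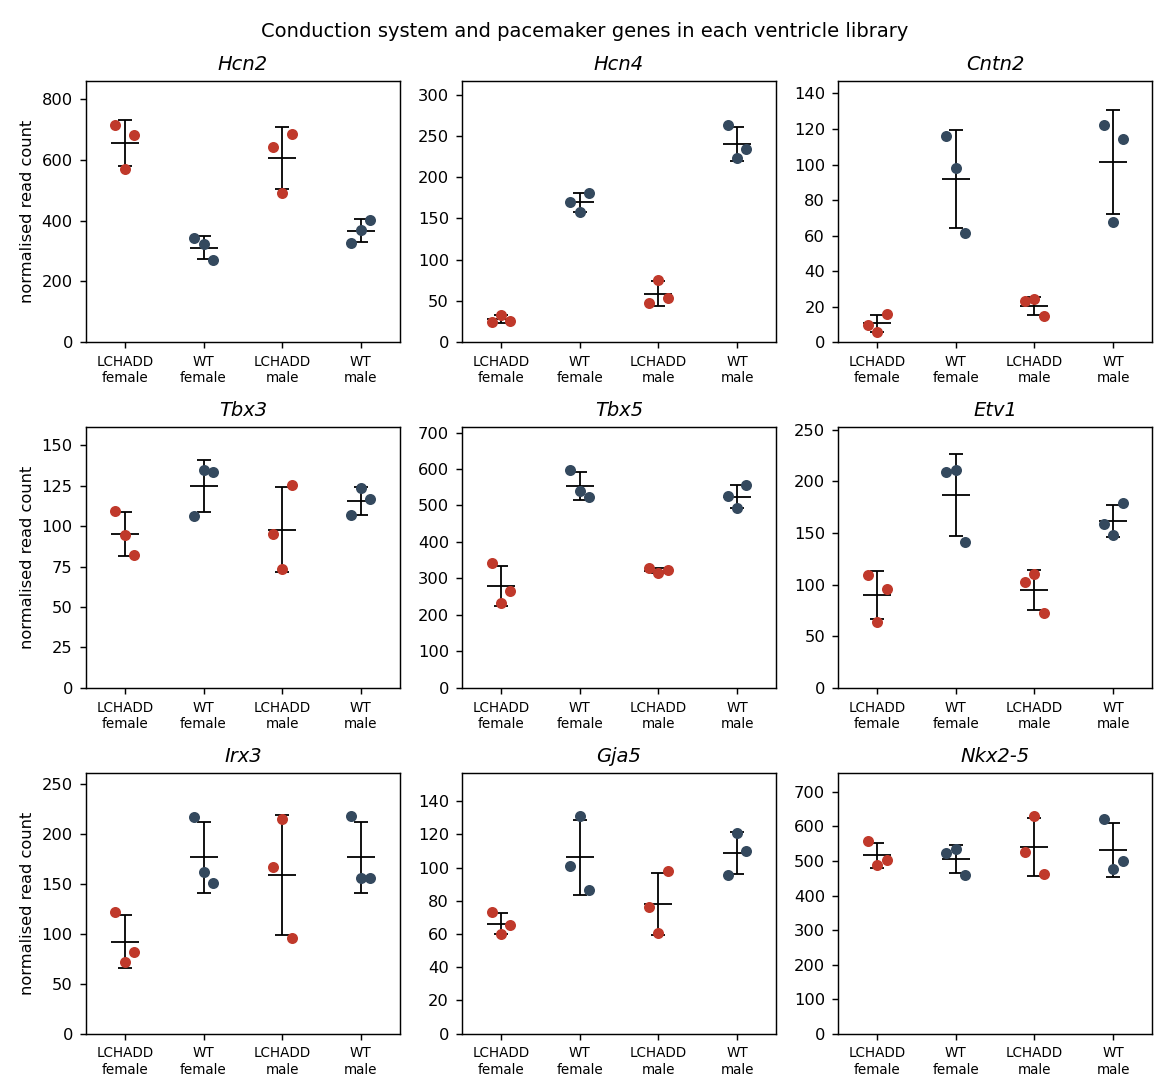
Normalised read counts of the 9 genes in each of the 12 libraries (points), with LCHADD in red and WT in dark blue-grey, and the mean and SD of each group of 3 (bars); each panel has its own axis from 0. Hcn2 lies higher and Hcn4, Cntn2, Tbx5 and Etv1 lie lower in all LCHADD libraries than in all WT libraries, while Nkx2-5 spans 462 to 629.7 in LCHADD and 459.6 to 623 in WT.

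Hcn4 fell and Hcn2 rose in both sexes. Hcn4 (ENSMUSG00000032338), the main pacemaker channel gene, had 24.1, 33 and 25.4 normalised reads in LCHADD females 1, 2 and 3, against 171, 158 and 181 in WT females. It had 46.9, 75.6 and 53.5 normalised reads in LCHADD males 1, 2 and 3, against 264, 223 and 234 in WT males. The highest LCHADD library thus lay below the lowest WT library, and male libraries lay above female ones within each genotype. The log2 change of Hcn4 was -2.59 in females (SE 0.19, adjusted p = 2.0e-07), -2.04 in males (SE 0.19, adjusted p = 5.1e-06) and -2.32 over both sexes (SE 0.13, adjusted p = 9.0e-09), where WT exceeded LCHADD 4.99-fold. Only 44 of the 13865 tested genes had a lower change over both sexes.

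Hcn2 (ENSMUSG00000020331), the isoform that working ventricular muscle also expresses, had 717, 569.9 and 682 normalised reads in LCHADD females, against 343, 323 and 270.4 in WT females. In males it had 643, 492 and 685 in LCHADD, against 328, 371 and 402 in WT. Every LCHADD library was above every WT library. The log2 change was 1.07 in females (SE 0.14, adjusted p = 3.3e-05), 0.71 in males (SE 0.14, adjusted p = 0.0027) and 0.89 over both sexes (SE 0.10, adjusted p = 4.3e-06), a 1.86-fold higher level in LCHADD.

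Set per kilobase of exon, so that the 2 channel genes can be compared, Hcn2 had 198 ± 26.6 normalised reads per kilobase in LCHADD and 106 ± 14.1 in WT (SD, n = 6). On the same scale Hcn4 had 7.04 ± 3.23 in LCHADD and 33.5 ± 6.81 in WT. The ratio of Hcn2 to Hcn4 per kilobase was 57.1, 33.1 and 51.5 in LCHADD females and 3.85, 3.91 and 2.87 in WT females. In males it was 26.3, 12.5 and 24.5 in LCHADD and 2.38, 3.18 and 3.29 in WT. The lowest LCHADD ratio was thus several times the highest WT ratio. The sum of both genes per kilobase was 205 ± 24.5 in LCHADD and 140 ± 18.1 in WT (SD, n = 6), with a lowest value of 166 in LCHADD and a highest value of 164 in WT. Hcn3, a further HCN channel gene, had 11 reads over the 6 LCHADD libraries and 10 over the 6 WT libraries and was not tested.

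**Figure D2:**
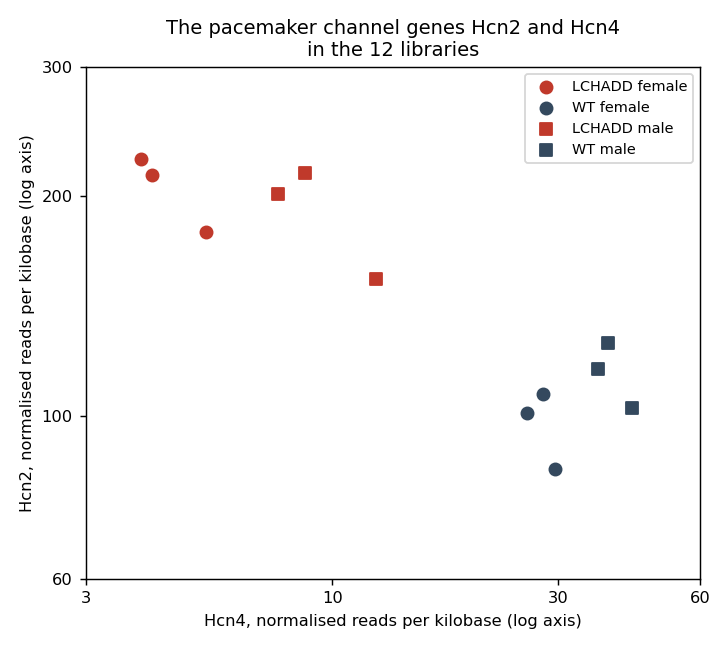
Hcn4 (horizontal) and Hcn2 (vertical) in normalised reads per kilobase of exon, both on log axes, in each of the 12 libraries; colour gives the genotype and shape the sex. The 6 LCHADD libraries lie at the upper left, with ratios of Hcn2 to Hcn4 of 12.5 to 57.1, and the 6 WT libraries at the lower right, with ratios of 2.38 to 3.91.

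Cntn2 (ENSMUSG00000053024) encodes contactin 2, a cell adhesion molecule that marks Purkinje and other conduction cells in the mouse heart. It had 9.84, 5.83 and 15.8 normalised reads in LCHADD females, against 116, 98.0 and 61.6 in WT females, and 22.9, 24.0 and 14.8 in LCHADD males, against 123, 67.8 and 114 in WT males. The highest LCHADD library, at 24.0, lay well below the lowest WT library, at 61.6. Its log2 change was -3.06 in females (SE 0.35, adjusted p = 1.2e-05), -2.23 in males (SE 0.35, adjusted p = 6.1e-04) and -2.65 over both sexes (SE 0.25, adjusted p = 1.0e-06), a level 6.26-fold higher in WT. This was the steepest fall among the 9 genes, and 24 tested genes had a lower change. It rests on few reads, 6 to 22 per LCHADD library and 55 to 148 per WT library. The SE was wider than for Hcn4, and the reason was not tested. In bulk tissue, fewer conduction cells and less of such RNA per cell cannot be told apart.

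**Figure D3:**
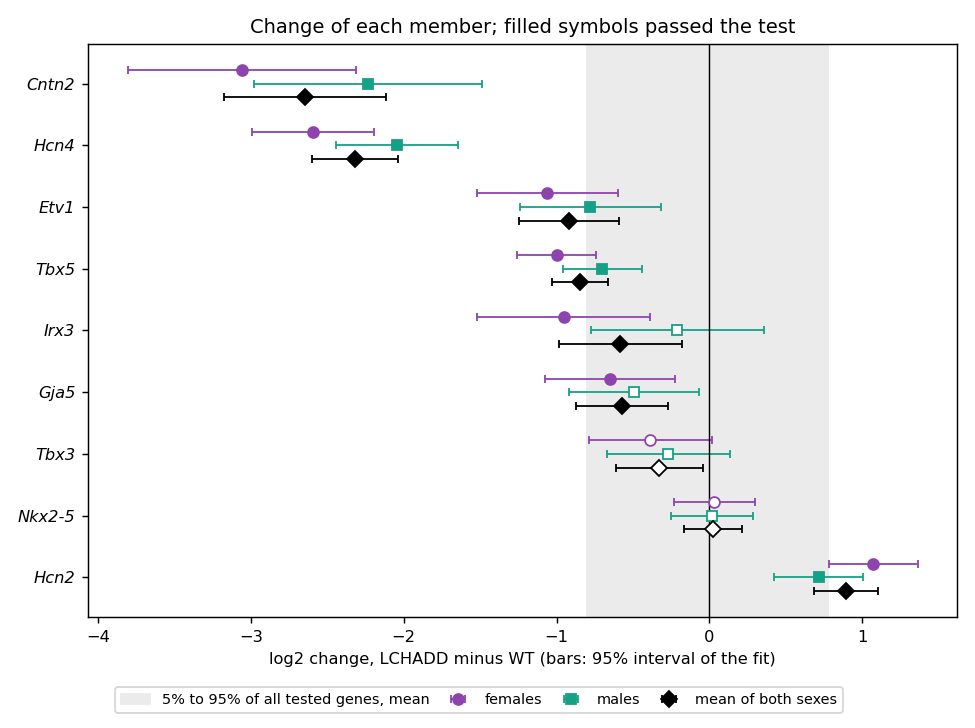
Log2 change, LCHADD minus WT, of each of the 9 genes in females (circles), males (squares) and the mean of both sexes (diamonds), with the 95% interval of the limma fit; filled symbols passed the test, and the grey band holds 5% to 95% of all tested genes over both sexes (-0.80 to 0.78). Cntn2 and Hcn4 lie far below the band in both sexes, Etv1 and Tbx5 just below it in the mean, and Hcn2 above it in the mean.

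Among the transcription factor genes, Tbx5 and Etv1 fell in both sexes. Tbx5 (ENSMUSG00000018263) is required for the ventricular conduction system and for fast conduction in the adult mouse. It had 341, 232 and 265 normalised reads in LCHADD females, against 596, 538 and 525 in WT females, and 328, 315 and 322 in LCHADD males, against 525, 492 and 555 in WT males. No LCHADD library reached the lowest WT value. Its log2 change was -0.999 in females (SE 0.12, adjusted p = 2.1e-05), -0.70 in males (SE 0.12, adjusted p = 0.0013) and -0.85 over both sexes (SE 0.09, adjusted p = 2.2e-06).

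Etv1 (ENSMUSG00000004151), an ETS factor needed for fast conduction in mouse atria and Purkinje fibres, had 109, 64.1 and 96.1 normalised reads in LCHADD females, against 209, 211 and 141 in WT females. In males it had 102, 109.9 and 72.8 in LCHADD, against 158, 148 and 179 in WT. Here too the genotypes did not overlap. The fitted log2 change came to -1.06 in females (SE 0.22, adjusted p = 0.0016), -0.78 in males (SE 0.22, adjusted p = 0.024) and -0.92 over both sexes (SE 0.15, adjusted p = 2.3e-04). The male call was lost without LCHADD male 3 (adjusted p = 0.11), without WT male 1 (0.066) and without WT male 3 (0.095).

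Irx3 (ENSMUSG00000031734), an Iroquois factor that promotes fast conduction in the mouse His and Purkinje system, had 122, 71.8 and 82.4 normalised reads in LCHADD females, against 218, 162 and 151 in WT females. In males it had 167, 215 and 95.6 in LCHADD, against 218, 157 and 157 in WT. The female groups were apart and the male groups overlapped. The log2 change was -0.95 in females (SE 0.27, adjusted p = 0.012), -0.21 in males (95% interval -0.78 to 0.36, adjusted p = 0.64) and -0.58 over both sexes (SE 0.19, adjusted p = 0.022). The female call was lost without WT female 1 (adjusted p = 0.061), and the call over both sexes was lost without WT female 1 (0.061), without LCHADD male 3 (0.055) and without WT male 1 (0.063). Without LCHADD male 3 the male change was 0.11 (adjusted p = 0.81).

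Tbx3 (ENSMUSG00000018604), a repressor of working muscle genes in nodal and bundle cells, did not pass in either sex. It had 109, 94.2 and 82.4 normalised reads in LCHADD females, against 106, 134 and 134 in WT females, and 94.8, 73.3 and 125 in LCHADD males, against 107, 123 and 117 in WT males, so that both sexes overlapped. It changed by a log2 of -0.39 in females (95% interval -0.79 to 0.02, adjusted p = 0.13), -0.27 in males (-0.67 to 0.13, adjusted p = 0.37) and -0.33 over both sexes (-0.61 to -0.04, adjusted p = 0.061). Over both sexes it passed without LCHADD female 1 (adjusted p = 0.046), without WT female 1 (0.046) and without LCHADD male 3 (0.016).

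Nkx2-5 (ENSMUSG00000015579), an early cardiac factor of working and conducting muscle, had 558, 488 and 502 normalised reads in LCHADD females, against 522, 534 and 459.6 in WT females. In males it had 527, 629.7 and 462 in LCHADD, against 623, 477 and 499 in WT. The groups lay on top of each other. The log2 change was 0.03 in females (95% interval -0.24 to 0.30, adjusted p = 0.87), 0.02 in males (-0.25 to 0.28, adjusted p = 0.95) and 0.02 over both sexes (-0.16 to 0.21, adjusted p = 0.86), with a sign that changed when single libraries were left out.

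Gja5 (ENSMUSG00000057123), the connexin 40 gene of atrial muscle, fast-conducting ventricular fibres and arterial endothelium, had 73.3, 60.2 and 65.5 normalised reads in LCHADD females, against 101, 131 and 86.4 in WT females. In males it had 76.1, 60.7 and 97.9 in LCHADD, against 95.6, 121 and 109.8 in WT. The female groups were apart, and in males LCHADD male 3 lay above WT male 1. Its log2 change was -0.65 in females (SE 0.20, adjusted p = 0.020), -0.49 in males (95% interval -0.92 to -0.07, adjusted p = 0.11) and -0.57 over both sexes (SE 0.14, adjusted p = 0.0045). The female call was lost without WT female 2 (adjusted p = 0.10). The value of Gja5 is uncertain, because Gpr89 overlaps it on the opposite strand, with a mean of 329 normalised reads in LCHADD and 271 in WT, and no source used here says whether reads were counted by strand. The antisense genes Tbx3os1 and Irx3os, which overlap Tbx3 and Irx3, had under 10 normalised reads in every library. The 8 arterial endothelial markers, a further source of Gja5, summed to 1221 to 1535 normalised reads in LCHADD and 1523 to 1855 in WT. Of these, 3 of 8 were lower over both sexes, where 20.6% of all tested genes were.

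Whether the genotype acted differently in the sexes was tested by the interaction, defined as the female change minus the male change. Every fall was numerically steeper in females, and the rise of Hcn2 was larger in females, but the interaction passed for none of the 9 genes (limma adjusted p 0.52 to 0.99). Over all tested genes 0.00721% passed, which is 1 gene, and 1363 genes had an unadjusted p under 0.05. None of the 9 genes passed the interaction with edgeR or DESeq2 on the recovered reads either, where 2 and 129 genes passed. The interaction of Hcn4 was -0.55 (95% interval -1.11 to 0.01), that of Cntn2 -0.83 (-1.88 to 0.23) and that of Irx3 -0.74 (-1.54 to 0.06), so the intervals leave room for sizeable differences.

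The order of the genes by level, in normalised reads per kilobase, differed between the genotypes mainly through the channels. In LCHADD it ran Nkx2-5 (307 ± 34.7), Hcn2 (198 ± 26.6), Tbx5 (64.3 ± 9.09), Irx3 (45.5 ± 20.1), Tbx3 (14.6 ± 2.81), Gja5 (12.6 ± 2.46), Hcn4 (7.04 ± 3.23), Etv1 (6.95 ± 1.46) and Cntn2 (1.67 ± 0.767) (SD, n = 6). In WT it ran Nkx2-5 (302 ± 33.6), Tbx5 (115 ± 7.51), Hcn2 (106 ± 14.1), Irx3 (64.1 ± 11.5), Hcn4 (33.5 ± 6.81), Gja5 (18.7 ± 2.87), Tbx3 (18.1 ± 1.88), Etv1 (13.1 ± 2.28) and Cntn2 (10.4 ± 2.80). Hcn2 stood clear above Tbx5 in LCHADD, while their ranges overlapped in WT. Hcn4 overlapped Gja5 and Etv1 in LCHADD, while it stood clear between Irx3 and Gja5 in WT. The remaining neighbours with overlapping ranges were Tbx5 and Irx3, and Tbx3 and Gja5, in LCHADD, and Gja5 and Tbx3, and Etv1 and Cntn2, in WT.

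The genes whose profile over the 12 libraries lay closest to those of Hcn4 and Cntn2 were sought among 10259 genes with a mean of at least 50, by the root mean square difference of log2 values centred over the libraries. Closest to Hcn4 were Adam11 (difference 0.256), a member of the ADAM family that lacks protease activity, Rhbdl3 (0.312), a rhomboid-like gene, and Tmod4 (0.388), a tropomodulin of striated muscle. Closest to Cntn2 were Adam11 again (0.378), B3galt2 (0.441), a galactosyltransferase, and Wnk2 (0.452), a WNK kinase. Hcn4 and Cntn2 differed from each other by 0.512. Adam11 had 38.3, 26.2 and 31.7 normalised reads in LCHADD females, against 224, 231 and 209 in WT females. In males it had 51.1, 93.9 and 48.9 in LCHADD, against 298, 238 and 253 in WT. Like Hcn4, it was highest in male 2 among the LCHADD libraries and in male 1 among the WT libraries. Being chosen for this likeness, these genes are a description with no test. B3galt2 overlaps Cdc73 on the opposite strand, which had a mean of 674 normalised reads in LCHADD and 733 in WT, so its value is uncertain.

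**Figure D4:**
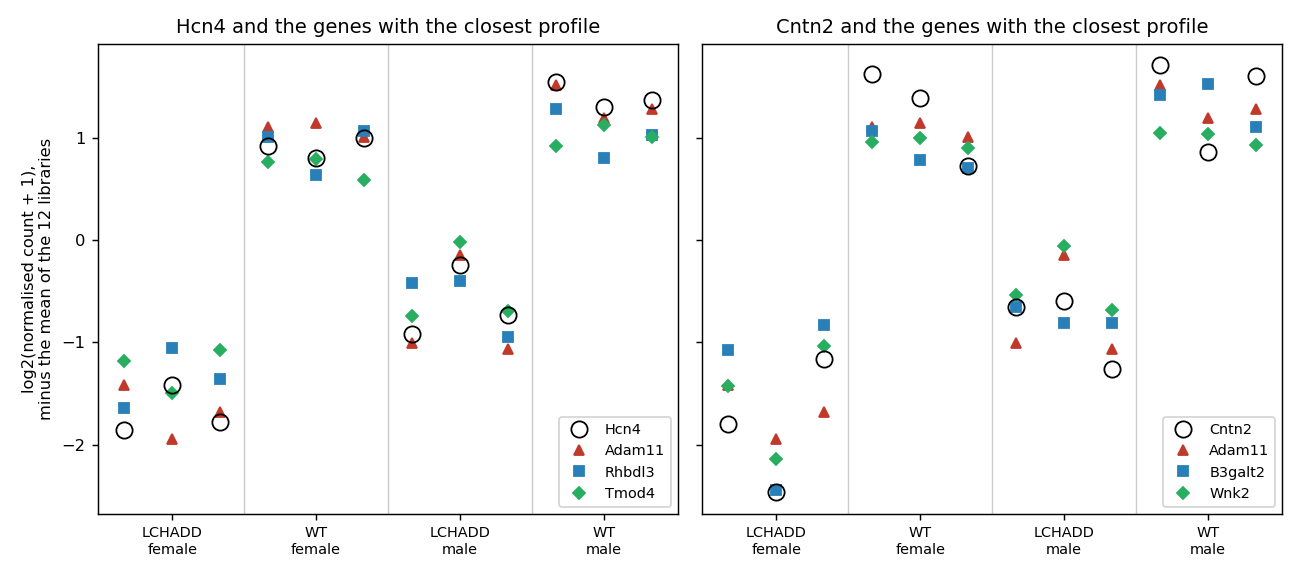
Log2(normalised count + 1) minus the mean of the 12 libraries, for Hcn4 (left) and Cntn2 (right) as open circles and for the 3 genes with the closest profile as filled symbols, library by library in the 4 groups. Adam11 follows Hcn4 with a root mean square difference of 0.256 and Cntn2 with 0.378.

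Other genes of impulse formation were taken from lists by role, of which the channel and marker lists share Cacna1g, Kcne1 and Scn10a. These lists, too, were chosen with earlier results of these data known, so their counts are a description. Among 18 tested channel genes besides the members, 2 were higher and 10 lower in LCHADD over both sexes, and 6 did not pass, against 20.3% higher and 20.6% lower of all tested genes, with a median change of -0.35 against -0.0019 over all tested genes. Kcne1, the beta subunit of the slow delayed rectifier, was the largest rise. It had 599, 213 and 317 normalised reads in LCHADD females, against 157, 143 and 84.7 in WT females, and 251, 234 and 394 in LCHADD males, against 41.8, 41.9 and 45.8 in WT males (log2 change 2.08 over both sexes, SE 0.22, adjusted p = 3.4e-06). All LCHADD libraries were above all WT libraries.

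The T-type calcium channel genes, which help nodal cells to depolarise, fell. Cacna1g averaged 113 ± 44.6 normalised reads in LCHADD and 293 ± 39.5 in WT (SD, n = 6; log2 change -1.46, SE 0.23, adjusted p = 1.3e-04). Cacna1h averaged 86.8 ± 29.8 in LCHADD and 172 ± 32.9 in WT (-1.01, SE 0.16, adjusted p = 1.6e-04). Kcnj3, a subunit of the acetylcholine-activated potassium channel, fell too, to 188 to 655 normalised reads in LCHADD, against 1058 to 1168 in WT (-1.21, SE 0.21, adjusted p = 2.6e-04). The calcium release channel gene Ryr2 (-0.24, 95% interval -0.49 to 0.01, adjusted p = 0.12) and the L-type calcium channel gene Cacna1c (-0.14, -0.41 to 0.13, adjusted p = 0.41) did not pass. Ryr2 passed without LCHADD female 3 (adjusted p = 0.0036).

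Of 7 tested genes for partners and regulators of HCN channels, 1 was higher, 3 were lower and 3 did not pass, where 20.3% of all tested genes were higher and 20.6% lower. Vapa, an endoplasmic reticulum protein that binds HCN channels, rose (log2 change 0.45, SE 0.08, adjusted p = 4.4e-04). The filamin gene Flna (-0.36, adjusted p = 1.4e-04), the caveolin gene Cav1 (-0.45, adjusted p = 3.5e-04) and Mrvi1 (-0.33, adjusted p = 0.011) fell. These changes were smaller than those of Hcn2 and Hcn4. Vapb (-0.04, adjusted p = 0.57) and the muscle caveolin gene Cav3 (-0.16, adjusted p = 0.055) did not pass. Cav3 passed with a filter of 50 (adjusted p = 0.0495), with TMM scaling (0.046), without LCHADD female 1 (0.025) and without LCHADD female 3 (0.039).

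Of 20 other tested transcription factor genes of conduction and chamber muscle, 0 were higher, 8 were lower and 12 did not pass over both sexes, with a median of -0.24. The share that passed in either direction lay near the 40.8% of all tested genes. By direction, 20.3% of all tested genes were higher and 20.6% lower. Hey2, a transcriptional repressor gene expressed in the ventricular compact layer, had 44.4 to 58.4 normalised reads in LCHADD, against 80.1 to 119.8 in WT (log2 change -0.93, SE 0.14, adjusted p = 7.95e-05). Irx2, a relative of Irx3, had 25.2 to 57.2 normalised reads in LCHADD, against 60.8 to 114 in WT (-0.89, SE 0.17, adjusted p = 6.1e-04). Both were lower in every LCHADD library. Klf15 (-0.42, adjusted p = 0.0020) and Gata6 (-0.30, adjusted p = 0.0068) also fell, while Gata4 (0.0041, adjusted p = 0.97) and Hopx (-0.24, adjusted p = 0.18) did not pass. Without LCHADD female 3, Hopx passed (-0.36, adjusted p = 0.022). Gata6 overlaps 1010001N08Rik on the opposite strand, which had a mean of 99.3 normalised reads in LCHADD and 86.4 in WT. Isl1 and Hand1 had no read in any library, and Shox2 was too low to be tested.

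Of 4 tested gap junction genes besides Gja5, 0 were higher, 2 were lower and 2 did not pass. Of all tested genes 40.8% passed, with 20.3% higher and 20.6% lower. Gjc1, the connexin 45 gene of slow-conducting nodal tissue, had 146 to 182 normalised reads in LCHADD, against 229 to 281 in WT (log2 change -0.61, SE 0.09, adjusted p = 6.9e-05), without overlap. Gja3 fell (-0.65, SE 0.16, adjusted p = 0.0043). Gja1, the connexin 43 gene of working muscle, averaged 8172 ± 906 normalised reads in LCHADD and 8684 ± 760.0 in WT (SD, n = 6; -0.09, 95% interval -0.23 to 0.05, adjusted p = 0.30), and Gja4 did not pass (-0.27, adjusted p = 0.097). Gja4 passed without LCHADD female 2 (adjusted p = 0.048) and without LCHADD male 3 (0.039). Per kilobase, Gja5 stood at 0.0158 ± 0.00271 of Gja1 in LCHADD and 0.0222 ± 0.00382 in WT.

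Of 12 other tested markers of conduction cells, 2 were higher, 7 were lower and 3 did not pass, with a median of -0.81, where 20.3% of all tested genes were higher and 20.6% lower. The 2 higher genes were Kcne1, the largest change of the list (log2 change 2.08), and Igfbp5. Igfbp5 had 1947 to 2637 normalised reads in LCHADD, against 1550 to 2232 in WT, so that the genotypes overlapped. Pcp4l1 had 1051 to 1726 normalised reads in LCHADD, against 3017 to 3712 in WT (log2 change -1.21, SE 0.10, adjusted p = 2.5e-07). Rgs6, a brake on acetylcholine signalling in pacemaker cells, fell (-1.10, SE 0.17, adjusted p = 1.1e-04), as did Smoc2 (-0.68, SE 0.05, adjusted p = 2.3e-07). Nppa, the atrial natriuretic peptide gene, averaged 201 ± 60.8 in LCHADD and 189 ± 43.8 in WT and did not pass (0.05, adjusted p = 0.86), nor did Pcdh17 (-0.33, adjusted p = 0.15). Without WT female 2, Pcdh17 passed (-0.49, adjusted p = 0.012). Upstream of Etv1, where neuregulin signals through ERBB receptors, Erbb4 rose (0.45, SE 0.13, adjusted p = 0.011), and Nrg1 (-0.44, adjusted p = 0.20), Erbb2 (-0.12, adjusted p = 0.53) and Erbb3 (-0.08, adjusted p = 0.44) did not pass. Erbb2 overlaps Mien1 on the opposite strand, which had a mean of 151 normalised reads in LCHADD and 92.5 in WT.

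**Figure D5:**
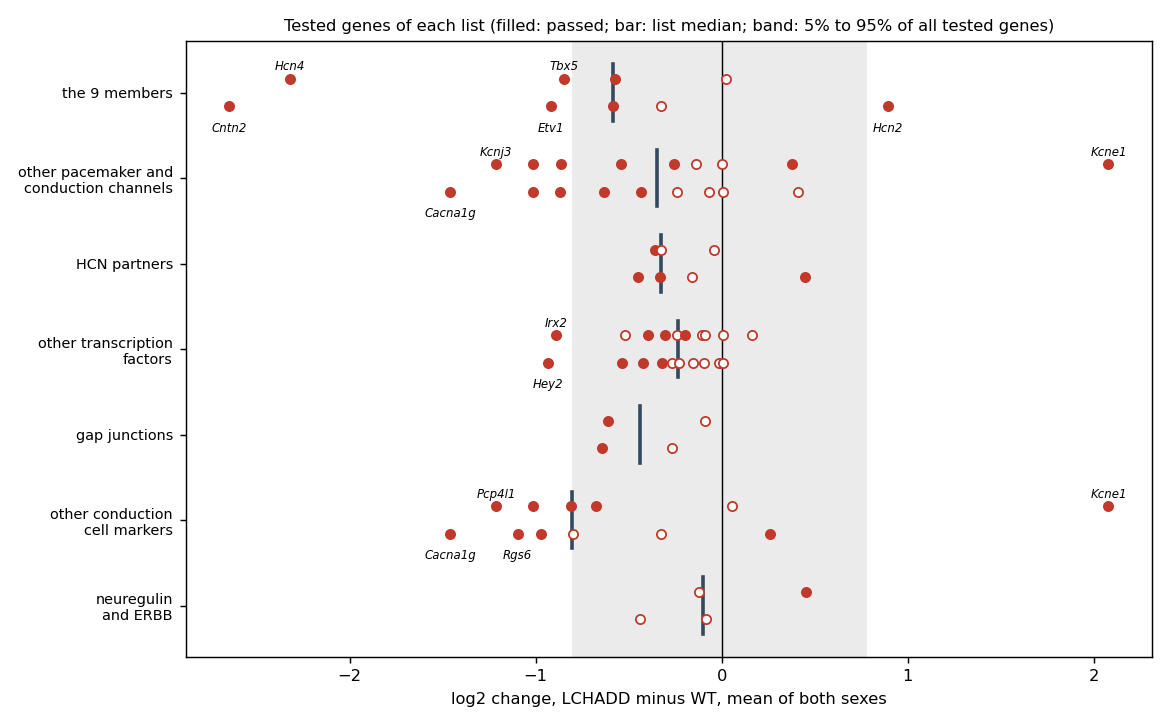
Log2 change, LCHADD minus WT, over both sexes, of the tested genes of each list (points; filled where the gene passed), with the median of each list (vertical bar) and the band that holds 5% to 95% of all tested genes (-0.80 to 0.78). Cntn2 and Hcn4 lie farther left than any other gene of these lists by role and Kcne1 farther right; Kcne1, Cacna1g and Scn10a stand in both the channel and the marker list.

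Markers of several other cell types moved with the genotype, and their part in the changes of the 9 genes was not tested. Over both sexes 20.3% of all tested genes were higher and 20.6% lower, 40.8% in either direction. These shares are the background for the counts here and in the next paragraph. Of 8 ventricular cardiomyocyte markers 7 were lower over both sexes and Myh7 was higher, with a median of -0.43. Fibroblast markers summed to 5576 to 7110 normalised reads in LCHADD and 7945 to 9465 in WT, and 6 of 6 were lower. Endothelial markers summed to 8282 to 9351 in LCHADD and 10300 to 11661 in WT, and 5 of 6 were lower.

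Of the sinoatrial node markers Isl1 was at 0 in all libraries and Vsnl1 stayed under 10. Their sum, 700 to 998 normalised reads in LCHADD and 1096 to 1606 in WT, was mostly Smoc2. Of the 2 tested genes 1 was lower, where 20.6% of all tested genes were. Atrial markers summed to 637 to 792 in LCHADD and 701 to 822 in WT, with 2 of 6 tested genes higher and 1 lower, the widest changes being 4.10 for Bmp10 and -2.94 for Sbk2. Neuron and glia markers summed to 360 to 497 in LCHADD females, against 254 to 302 in WT females. In males they summed to 227 to 279 in LCHADD and 272 to 280 in WT. Th was at 0 in all libraries, and of 6 tested genes 1 was higher and 2 were lower. The higher gene was Uchl1, the most abundant of the list (log2 change 1.24). It had 164 to 414 normalised reads in LCHADD, against 91.6 to 132 in WT. The steepest fall was that of Dbh (-4.02). Macrophage markers summed to 1281 to 1709 in LCHADD and 1243 to 1710 in WT, with 0 of 5 passing over both sexes, and each of the 5 adipocyte markers stayed under 10 in every library, with sums of 0 to 15.8 in LCHADD and 0 to 14.5 in WT.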

How the data were processed

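Total RNA of mouse heart ventricle was isolated with a spin column kit for fibrous tissue and sequenced on a NovaSeq instrument, per the labels' protocols. The values that the authors deposited are signal: each is a read count divided by the size factor of its library. Build GRCm39, bcl2fastq and DESeq2 are named without versions, per the submitters' processing notes. For the aligner, the counter and strand, the entry is not given in the sources used here. In every library 100.0% of the deposited signal values were whole multiples of 1 step, within 0.01, so reads were recovered. In WT male 1 the step, 0.996, lay so close to 1 that this check says less there, and edgeR and DESeq2 on recovered reads carry that limit. The table has 51912 gene IDs, and 51633 were matched to a symbol of GENCODE vM21, which also gave exon lengths. Promoter windows came from RefSeq on GRCm38.p6, a build other than that of the reads, and no other coordinates are given.

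Libraries were grouped by genotype and sex. Genes reaching a value of 10 in 3 or more of the 12 libraries were tested with limma 3.58.1 in R 4.3.3 (lmFit, eBayes with a trend) on log2(value + 1), in 1 fit with 4 group means and no covariate. LCHADD minus WT was fitted for females, for males, as the average of both, and as their difference (the interaction). The method was tested on simulated data. Depth was 15.6 to 23.2 M (mega) reads.

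All 9 genes are named. From each other list by role, the naming rule took the 4 passing genes of lowest adjusted p and the 2 most abundant others over both sexes, where there were so many. For members that passed with a change of at least 1 (log2) it took the 3 genes with the closest profile. Nrg1, Scn10a, Igfbp5, Myh7, Myl2, Uchl1, the genes at or near 0 and the genes of the closing observations were named after their values were seen. Some genes of the lists are not reported here. The members and the lists were chosen with earlier results of these data known. Alternatives were added values of 0.5 and 5, no filter and a filter of 50, TMM scaling, scaling by nuclear reads, edgeR 4.0.16 (quasi-likelihood) and DESeq2 1.42.0 on recovered reads, the groups of a comparison alone, the replicate number as a block, and libraries left out.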

Additional observations from a re-analysis of the deposited data

How the results depend on the processing

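The number of the 9 genes that passed was 7 in females, 5 in males, 7 over both sexes and 0 in the interaction under every added value, filter, scaling and tool tried. With single libraries left out it was 6 to 7 in females, 4 to 5 in males, 6 to 8 over both sexes and 0 in the interaction. All calls of Hcn2, Hcn4, Cntn2 and Tbx5 held under every alternative. Over the 62 gene results, 1336 of 1382 alternatives kept direction and call, 8 lost a call, 12 gained one and 26 turned a sign, all of values that did not pass.

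The count of all genes that passed in males was 2146, and 3342 with the males alone in the fit, 3317 without both LCHADD female 2 and WT female 3, and 1317 to 3293 with single libraries left out, the highest without LCHADD female 2. For the interaction it was 1, and 2 with a filter of 50, 2 with TMM, 2 with edgeR, 129 with DESeq2, 9 without both libraries and 0 to 186 with single libraries left out, the highest without LCHADD female 3. The cause was not tested.

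Signs turned as follows, with ranges over single libraries left out. Irx3 in males ranged from -0.47 to 0.11, with 0.11 without LCHADD male 3. Nkx2-5 ranged from -0.036 to 0.073 in females, from -0.10 to 0.13 in males and from -0.035 to 0.082 over both sexes. Cacna1c ranged from -0.24 to 0.012 and was 0.012 without both libraries. Vapb was 0.00025 under nuclear scaling. Gata4 ranged from -0.042 to 0.050 and was -0.0050 with TMM, -0.0010 with edgeR and -0.023 without both libraries. Nppa ranged from -0.069 to 0.25.

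The replicate numbers of the labels do not pair the libraries: same-numbered libraries of a sex deviated together with r of -0.0536 to 0.0310 over 6 pairs. With the number as a replicate block 7, 5, 7 and 0 of the 9 genes passed in females, males, both sexes and the interaction, as did 4502, 2016, 5482 and 1 of all genes. The median change of all genes moved to at most 0.039 (log2), under nuclear scaling. Depth limits Cntn2 most, at 6 to 22 reads per LCHADD library.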

Other observations

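Among the marker lists, 3 genes stood out and were singled out after their values were seen, so their p-values are a description and no support. Dbh met the filter on low values only through WT libraries, and Bmp10 only through LCHADD libraries. Dbh, dopamine beta-hydroxylase, which makes noradrenaline, had 1.94 to 6.34 normalised reads in LCHADD, against 56.2 to 87.6 in WT (log2 change over both sexes -4.02, SE 0.28, limma adjusted p = 5.1e-08), while Th, the enzyme upstream of it, was at 0 in all libraries. Sbk2, a kinase gene of atrial muscle, had 6.83 to 24.0 in LCHADD, against 83.8 to 149 in WT (-2.94, SE 0.25, adjusted p = 3.8e-07). Bmp10, an atrial growth factor gene, had 38.3 to 101 in LCHADD, against 1.71 to 5.98 in WT (4.10, SE 0.27, adjusted p = 2.9e-08). None of the 3 overlapped between the genotypes, as was the case for 19.7% of all tested genes. The 2 genes from the atrial marker list, Sbk2 and Bmp10, moved in opposite directions.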
